A study of Homo sapiens with 4 samples.

Results

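The human mitochondrial genome holds 37 genes: 13 encode proteins, 2 encode ribosomal RNAs and 22 encode transfer RNAs. All 37 were present among the 57905 genes of the deposited count table, and they were chosen as every gene that the table places on the mitochondrial chromosome (MT), whatever its level. Their transcripts were read in 4 RNA sequencing libraries of A549, a human lung adenocarcinoma cell line. Each condition had 1 library. The scramble control (sc) and shDCBLD2 lines carried a scrambled or a DCBLD2-directed hairpin in a lentiviral vector with puromycin resistance (pLV-H1-EF1α-puro). The empty vector line (Vec) and the line labelled DCBLD2 overexpression carried a different lentiviral vector, with blasticidin resistance (pLV-EF1-MCS-IRES-Bsd), so sc and Vec were not replicates of each other. The last line is called the OE-labelled library, because its DCBLD2 level goes against its label. The viruses were packaged in 293T cells and the lines were stable. The shDCBLD2 library is titled shD5, and the hairpin sequence that this title stands for is not stated in the sources used here. DCBLD2 is a transmembrane receptor, and the study asked what its level does to lung cancer cells. Total RNA was passed through poly(A) selection before library construction, which bears on every value given here.

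Mitochondrial DNA is transcribed from both strands as long RNAs that are cut into individual messages, rRNAs and tRNAs. The encoded proteins are core subunits of the respiratory chain and of ATP synthase, all other subunits of which are made from nuclear genes. The 12S and 16S rRNAs are the RNA cores of the small and large subunit of the mitochondrial ribosome. Most mitochondrial mRNAs receive a short poly(A) tail, the rRNAs carry only short adenine extensions, and mature tRNAs end in CCA.

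In several of these messages the tail also completes the stop codon, so the annotated 3′ ends are shown. The sequences are the last 15 bases of each annotated mRNA in GENCODE 29 (GRCh38), where all 37 genes lie at the positions deposited by the authors. Capitals mark the letters left over after the last whole codon, or the whole codon that ends the frame. By annotation, the first 6 end in an incomplete stop codon, with 1 base in 5 of them and 2 bases in MT-ND1. The other 7 end in a whole codon. For MT-ATP6, the last base of that codon (MT 9207) is also the first base of MT-CO3. Which of these messages keeps the base after cutting was not read here, so the class of MT-ATP6 rests on the annotation.
MT-ND1: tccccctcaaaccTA
MT-ND2: tactaataatcttaT
MT-CO3: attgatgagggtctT
MT-ND3: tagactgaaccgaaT
MT-ND4: ccgggttttcctctT
MT-CYB: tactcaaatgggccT
MT-CO1: tacataaaatctAGA
MT-CO2: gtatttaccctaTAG
MT-ATP8: cccccacaatccTAG
MT-ATP6: cacgacaacacaTAA
MT-ND4L: ctactccaatgcTAA
MT-ND5: ctcctaatcacaTAA
MT-ND6: gctcgggggaatAGG

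Stretches of adenine inside a transcript were also read from the sequence. Their part in the selection was not tested. MT-RNR2 (16S rRNA, MT 1671 to 3229, + strand) is 35.1% adenine, with a longest run of 7, and 5 windows of 6 adenines. MT-RNR1 (12S rRNA, MT 648 to 1601, + strand) is 33% adenine, with a longest run of 6 and 1 such window. The longest run of each is printed in capitals with 20 bases on either side, at MT 973 to 1018 for 12S and MT 2437 to 2483 for 16S. The longest run of any member was in MT-ND5, with 8 adenines and 5 windows. MT-ND2, MT-CO1 and MT-ND4 also had a longest run of 7, as in MT-RNR2.
MT-RNR1: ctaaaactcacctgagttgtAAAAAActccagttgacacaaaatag
MT-RNR2: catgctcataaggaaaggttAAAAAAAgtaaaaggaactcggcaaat

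Library totals ran from 16601633 counts in the OE-labelled library to 21537283 in shDCBLD2. DCBLD2 itself was at 504 CPM (counts relative to the library size, scaled by trimmed mean of M-values factors) in sc and 197 in shDCBLD2. It was at 434 CPM in Vec and at 242 in the OE-labelled library, which is below its control (log2 ratio -0.84, 95% interval -0.90 to -0.79) and against the label. In the paper, the overexpression vector was made with the complete DCBLD2 coding sequence. Whether a vector transcript was missed in the counts was not tested. Of the A549 markers, KRT8, KRT18, AKR1C2 and ALDH1A1 were abundant in every library (31146 to 160585 counts each), while EPCAM had 26 to 88 counts. The summed level of 6 fibroblast markers was 34 to 71.5 CPM, highest in the OE-labelled library, with 1 to 4 of the 6 at 0 per library. This sum followed COL1A1, which had 639 counts in sc, 1165 in shDCBLD2, 652 in Vec and 1041 in the OE-labelled library. COL1A2 had 67 counts in the OE-labelled library against 0 in Vec and 17 in sc, and FAP had none in any library. The sum of 4 blood markers was at most 0.182 CPM, with PTPRC at 0 in all. The sum of 4 293-cell markers was 99.4 to 346 CPM, and followed PEG10, which had 1341 counts in the OE-labelled library and 2549 in Vec. In the OE-labelled library NEFM had 221 counts, against at most 4 elsewhere, and LIN28B had 78, against 25 to 27, while STMN2 had none in any library. The part of these markers in the results was not tested.

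Mitochondrial genes took 5.54% of all counts in sc, 5.09% in shDCBLD2, 6.53% in Vec and 5.14% in the OE-labelled library. Vec was thus highest and the other 3 lay within 5.09% to 5.54%. Exact Clopper-Pearson 95% intervals were narrow, for example 6.522% to 6.545% in Vec, and cover counting error only. They say nothing about how much 2 cultures of the same line would differ. On the summed counts, the OE-labelled library was lower than Vec (log2 ratio -0.37, interval -0.370 to -0.362). The sum differed less between shDCBLD2 and sc (-0.09, -0.095 to -0.087), and Vec was above sc (0.30, 0.297 to 0.305). The 2 control libraries therefore differed from each other by nearly as much as the OE-labelled library differed from its own control. In bulk RNA, less mitochondrial RNA per cell and a larger share of other RNA cannot be told apart.

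**Figure D1:**
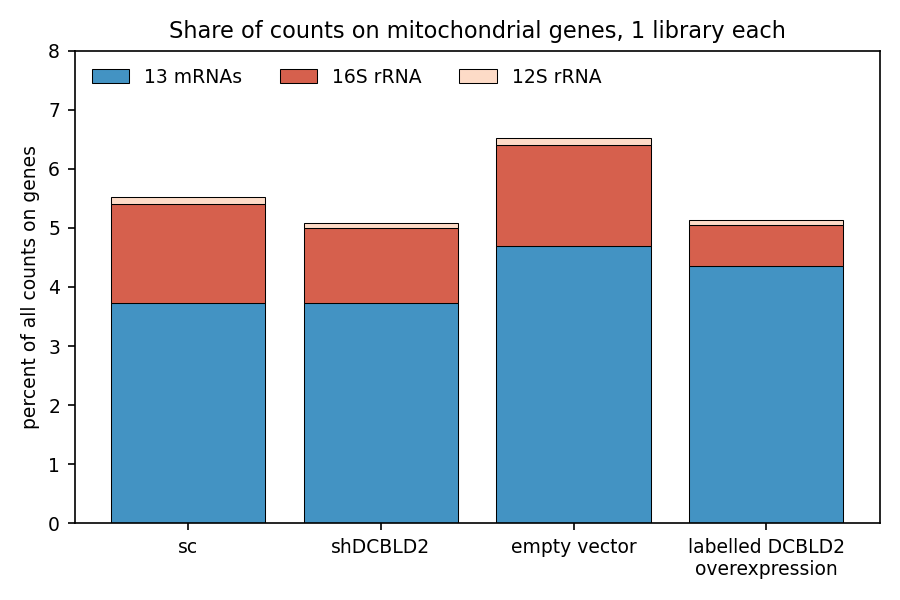
Percent of all counts on genes (vertical axis, from 0) that fell on the 13 mitochondrial mRNAs, the 16S rRNA and the 12S rRNA, stacked for each of the 4 libraries; there is 1 library per condition and no error bar. The 16S segment is 1.69%, 1.27% and 1.71% in the first 3 libraries and 0.69% in the OE-labelled library, while the mRNA segment is between 3.72% and 4.7% in all 4.

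The rRNA and mRNA parts of that share did not move together. The 13 mRNAs made up 3.72% of the counts in sc, 3.72% in shDCBLD2, 4.7% in Vec and 4.36% in the OE-labelled library. The 2 rRNAs made up 1.81%, 1.36%, 1.82% and 0.779% in the same order. Within the mitochondrial counts, rRNA was 32.7% in sc, 26.8% in shDCBLD2 and 27.9% in Vec, but 15.2% in the OE-labelled library. The summed mRNAs of that library were at a log2 ratio of -0.13 to Vec, whereas its summed rRNAs were at -1.25 (interval -1.255 to -1.237).

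MT-RNR2, the 16S rRNA, carried most of this difference. Its counts were 322927 in sc, 272772 in shDCBLD2, 319609 in Vec and 114633 in the OE-labelled library, or 16507, 12645, 17411 and 6945 CPM. The last library lay below the other 3, and its ratio to Vec was 2.51-fold lower (log2 -1.33, interval -1.336 to -1.316). Against sc, which was not its own control, the ratio was -1.25. Among all genes, MT-RNR2 had rank 1 by counts in sc, rank 2 in shDCBLD2 and in Vec, and rank 8 in the OE-labelled library. Changed genes were those past 2-fold whose interval excluded no change, among the 13966 genes with a mean of at least 1 CPM, 16 of them mitochondrial. By this rule 1 of the 16 mitochondrial genes was changed in this comparison, MT-RNR2, where 11.8% of all genes were changed in either direction and 5.35% were lower. That 1 of 16 was called is thus no more than the share of all genes called. Among the 98 genes with a mean of at least 1000 CPM, 2.04% were 2-fold lower, namely MT-RNR2 and HSP90AA1 (-1.67), a stress-inducible chaperone that was named after its value was seen. Of all genes past the filter, 208 had a ratio at or below that of MT-RNR2.

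**Figure D2:**
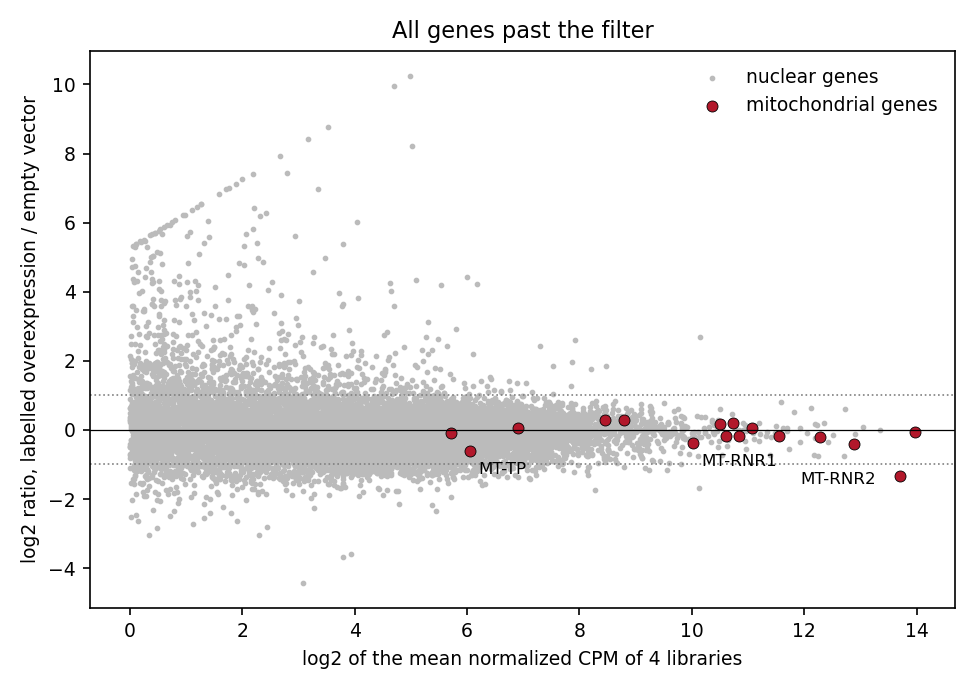
Log2 ratio of the OE-labelled library to Vec (vertical axis) against the log2 of the mean normalized CPM of the 4 libraries (horizontal axis) for all genes past the filter, with 1 point per gene, mitochondrial genes in red and dotted lines at 2-fold. MT-RNR2, at -1.33, lies apart from the other mitochondrial genes at the abundant end of the plot, where few genes pass the lower line.

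MT-RNR1, the 12S rRNA that is cut from the same precursor, differed less. It had 1168 CPM in sc, 954 in shDCBLD2, 1162 in Vec and 887 in the OE-labelled library. The controls were alike and the OE-labelled library was lowest, at a log2 ratio of -0.39 (interval -0.420 to -0.359) to Vec. Per length, in the deposited FPKM (counts per kilobase of gene, relative to the library total), 16S exceeded 12S by 8.65-fold in sc, 8.11-fold in shDCBLD2 and 9.17-fold in Vec, and by 4.79-fold in the OE-labelled library. These ratios within a library do not depend on the scaling between libraries. The FPKM of MT-RNR2 relative to MT-ND1, the next protein-coding gene downstream, which encodes a complex I subunit, was 7.09 in sc, 4.39 in shDCBLD2, 6.43 in Vec and 2.24 in the OE-labelled library.

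In shDCBLD2 both rRNAs were also below sc. MT-RNR2 was at a log2 ratio of -0.38 (interval -0.392 to -0.377) and MT-RNR1 at -0.29 (-0.320 to -0.265), neither of which reached 2-fold. Between the controls the same ratios were 0.08 and -0.01. DCBLD2 transcript was below the matched control in both lines whose rRNA counts were below theirs, by a log2 ratio of -1.35 (-1.40 to -1.30) in shDCBLD2. Whether the rRNA counts go with the DCBLD2 level cannot be told from 1 library per condition.

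Nuclear RNAs listed as normally lacking a long tail were examined beside the rRNAs. Whether the counted ones carried a tail was not read here, so their values do not show what the poly(A) selection lets through. Of the 22 listed, 8 are made by RNA polymerase III and 14 are histone messages, and 10 passed the filter. The median log2 ratio of the OE-labelled library to Vec was -0.15 over those 10. By group it was 0.72 for the 2 polymerase III RNAs and -0.21 for the 8 histone genes. Of them 1 was lower by 2-fold, the histone gene H4C8 (-1.37, from 26 and 8 counts), where 5.35% of all genes were. Below the filter, RN7SK had 2 counts in Vec and 25 in the OE-labelled library, RMRP 5 and 16, and RPPH1 4 and 16. The histone genes H1-4 (15 and 1) and H2BC4 (20 and 7) were lower there. Summed, polymerase III RNAs were at 61.2 and 101 CPM, and histone genes at 89.7 and 84.9. RN7SL1 and RN7SL2, the RNA of the signal recognition particle, were at 0.83 and 0.62 in that comparison, in the opposite direction to the mitochondrial rRNAs. RN7SL1 overlaps RPS29, so part of its reads may belong to that gene. Set against sc, shDCBLD2 had the same pair at -0.50 and -0.64, and none of the 10 was changed, beside 6.78% of all genes. Between the controls the 10 had a median of -0.08, with none changed, beside 4.11%. Of the long nuclear RNAs, MALAT1 had 5132, 5216, 8298 and 3007 counts in the order sc, shDCBLD2, Vec and OE-labelled, a log2 ratio of -1.31 in the last pair, and NEAT1 was at -0.16 there and at -0.79 in shDCBLD2 against sc. MALAT1 overlaps another listed gene. The part of the selection in the rRNA counts was not tested.

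The tRNA genes were almost empty. Of the 22, 21 had no count in any library, which allows at most 0.139 to 0.181 CPM of unscaled library totals in the 4 libraries (3 counts each). The exception was MT-TP, the proline tRNA, with 1481 counts in sc, 1444 in shDCBLD2, 1368 in Vec and 808 in the OE-labelled library. The first 3 libraries lay at 66.9 to 75.7 CPM and the last at 49, with a log2 ratio to Vec of -0.61 (interval -0.734 to -0.480). In shDCBLD2 the ratio to sc was -0.18 (-0.283 to -0.072), and between the controls it was -0.02 (-0.130 to 0.084). MT-TP lies on the - strand next to the non-coding control region (MT 15956 to 16023), and MT-TT, the threonine tRNA, lies beside it on the + strand (MT 15888 to 15953) with no count. Both are shown in full, MT-TP as the only tRNA gene counted and MT-TT as its empty neighbour.
MT-TP: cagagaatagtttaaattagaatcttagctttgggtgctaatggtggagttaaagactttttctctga
MT-TT: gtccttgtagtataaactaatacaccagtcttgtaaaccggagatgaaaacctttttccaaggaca

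The tRNA genes span 59 to 75 bases, and short genes in the nucleus were also mostly empty. Of 1081 nuclear genes of that length, 949 (87.8%) had no count in any library, and none had more than 100 in any, so MT-TP also stood apart from nuclear genes of its size. Whether the reads on MT-TP came from the tRNA or from a longer transcript across it cannot be told from counts per gene.

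None of the 13 mRNAs was past 2-fold between the OE-labelled library and Vec. Their median log2 ratio was -0.07, beside -0.04 over all genes past the filter, and the members ranged from -0.41 for MT-CO2 to 0.28 for MT-ND3 and MT-ND6. In shDCBLD2 against sc the median was 0.06, beside 0.01, with a range of -0.90 to 0.53. Between Vec and sc it was 0.29, beside -0.01, with a range of -0.48 to 0.75. Thus 6, 8 and 11 of the 13 lay above 0 in these comparisons, beside 47.1%, 50.9% and 49.2% of all genes past the filter. The number was largest in the comparison between the 2 controls. The first and the last comparison share Vec, so a value that is high in that library raises one and lowers the other. No mitochondrial gene was changed by 2-fold in shDCBLD2 against sc or in Vec against sc, where 6.78% and 4.11% of all genes were.

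At a lower threshold of 1.5-fold, MT-RNR2 and MT-TP passed in the OE-labelled library against Vec, where 30.6% of all genes did. Between shDCBLD2 and sc MT-ND4L passed, beside 16.5% of all genes, and in Vec against sc MT-CO3 passed, beside 13.7%. These counts, 2, 1 and 1 of 16 genes, are no more than those shares. Of the 98 genes of at least 1000 CPM 11 were mitochondrial. The median over those 98 genes, the mitochondrial ones included, was -0.06, 0.02 and 0.18 in the 3 comparisons. No median was taken over the abundant nuclear genes alone. Whether they shared the offset between the controls was therefore not tested.

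**Figure D3:**
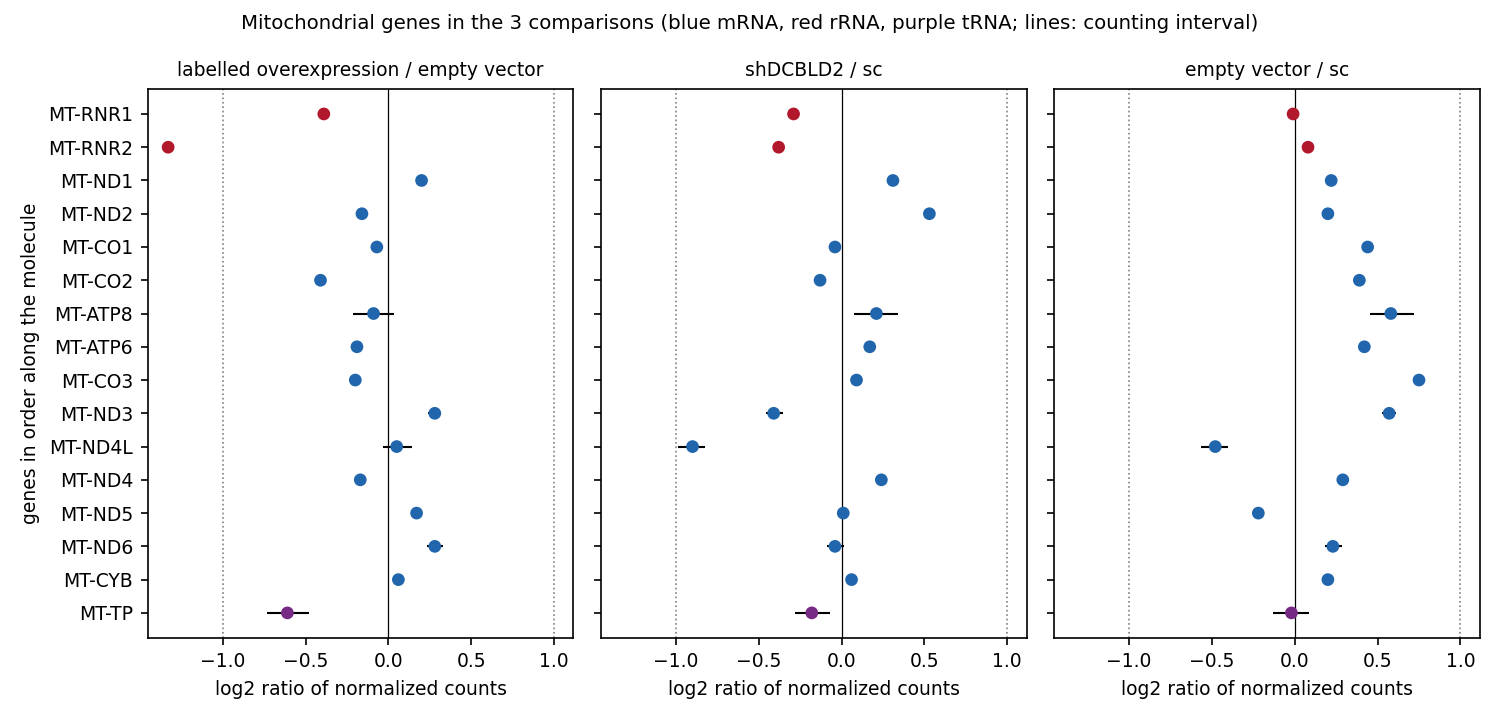
Log2 ratios of normalized counts (horizontal axis) for the 16 mitochondrial genes past the filter, listed in their order along the molecule, in the 3 comparisons; points are single ratios, black lines are 95% counting intervals, often hidden by the point, and dotted lines mark 2-fold. MT-RNR2 at -1.33 in the left panel is past 2-fold, MT-ND4L is lowest at -0.90 in the middle panel and MT-CO3 highest at 0.75 in the right panel.

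Complex IV, cytochrome c oxidase, passes electrons to oxygen, and its 3 mitochondrial subunits gave the most abundant messages. MT-CO1, the catalytic subunit, had 13953 CPM in sc, 13538 in shDCBLD2, 18924 in Vec and 18038 in the OE-labelled library. The hairpin lines lay close together and lower, and the lines with the expression vector close together and higher, so that the ratio between the controls (0.44, interval 0.432 to 0.447) exceeded that of either condition to its control (-0.07 and -0.04). MT-CO2, which takes electrons from cytochrome c, had 7201, 6599, 9430 and 7083 CPM in the same order. Here Vec stood alone at the top, and the OE-labelled library was at -0.41 (-0.424 to -0.402) to it, the lowest ratio of any mRNA in that comparison. Against sc the same library was at -0.02. MT-CO3, the other core subunit, had 3835, 4084, 6446 and 5598 CPM. Its ratio between the controls, 0.75 (0.736 to 0.763), was the highest of the 13.

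Complex I, NADH dehydrogenase, holds 7 mitochondrial subunits, and their messages did not move as one. Summed, they were at 0.01 in the OE-labelled library against Vec, 0.22 in shDCBLD2 against sc and 0.17 in Vec against sc. MT-ND1 had 1427 CPM in sc, 1768 in shDCBLD2, 1660 in Vec and 1903 in the OE-labelled library, so that sc was lowest. MT-ND2 had 1346, 1939, 1547 and 1384 CPM, and was highest in shDCBLD2, with a ratio to sc of 0.53 (interval 0.504 to 0.549). MT-ND4 had 2671, 3156, 3273 and 2905 CPM, and also was lowest in sc. All 7 subunits sit in the membrane arm of the complex, which pumps protons.

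MT-ND3 went the other way in shDCBLD2. It had 352 CPM in sc, 266 in shDCBLD2, 523 in Vec and 635 in the OE-labelled library, so both hairpin lines lay below both lines with the expression vector. The ratio of shDCBLD2 to sc was -0.41 (-0.457 to -0.356), and that between the controls was 0.57 (0.524 to 0.613). MT-ND4L had 161, 86.2, 115 and 120 CPM, and sc was here the highest library. Its ratio in shDCBLD2, -0.90 (-0.988 to -0.822) or 1.87-fold lower, was the lowest of the 16 genes in that comparison, although Vec was also below sc by -0.48 (-0.565 to -0.405).

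MT-ND4L and MT-ND4 are read from one bicistronic message, and overlap by 7 bases at MT 10760 to 10766, in capitals in the sequence printed here, which start the frame of MT-ND4 and end that of MT-ND4L. Their ratios in shDCBLD2 were of opposite sign, -0.90 and 0.24.
MT-ND4L to MT-ND4 junction: acctactccaATGCTAAaactaatcgt

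Per length, MT-ND4 exceeded MT-ND4L by 3.57-fold in sc, 7.89-fold in shDCBLD2, 6.12-fold in Vec and 5.23-fold in the OE-labelled library. The other bicistronic message, of MT-ATP8 and MT-ATP6, which encode subunits of ATP synthase (complex V), was steadier. MT-ATP6 exceeded MT-ATP8 per length by 11.5-fold, 11.2-fold, 10.2-fold and 9.59-fold in the same order. MT-ATP8 had the lowest FPKM of all 16 counted genes in each library (206, 233, 296 and 282). Its 207 bases share 46 with MT-ATP6 at MT 8527 to 8572, which is 22.2% of MT-ATP8 and 6.75% of MT-ATP6. How reads on the shared bases were assigned was not given in the sources used here, and so the level of the shorter member of each pair is uncertain.
MT-ATP8 and MT-ATP6 shared bases: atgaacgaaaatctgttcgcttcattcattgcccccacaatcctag

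MT-ATP6, the subunit that forms the proton path, had 1575 CPM in sc, 1775 in shDCBLD2, 2108 in Vec and 1854 in the OE-labelled library. MT-ATP8 had 41.7, 48.1, 62.5 and 58.8 CPM. Both were lowest in sc and highest in Vec, and their ratios between the controls were 0.42 and 0.58. MT-CYB, cytochrome b of complex III, had 1954, 2036, 2237 and 2337 CPM. It was lowest in sc and highest in the OE-labelled library, with ratios of 0.06 (0.043 to 0.083), 0.06 (0.040 to 0.079) and 0.20 (0.175 to 0.215).

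MT-ND5 had 1506 CPM in sc, 1516 in shDCBLD2, 1294 in Vec and 1454 in the OE-labelled library, and so was lowest in Vec, where MT-CO1, MT-CO2 and MT-CO3 were highest. Its ratio between the controls was -0.22 (-0.244 to -0.195). Its ratio in shDCBLD2, 0.01, became negative when library totals were used without a scaling factor. MT-ND6, which is encoded on the - strand opposite to the other 12 messages, had 305, 298, 359 and 436 CPM. It was highest in the OE-labelled library, at 0.28 (0.232 to 0.329) to Vec. The use of strand in counting was not given in the sources used here, so reads of MT-ND6 and of the RNA opposite to it cannot be told apart.

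Shares within the 13 messages do not depend on the scaling between libraries, and MT-CO1, MT-CO2, MT-CO3 and MT-ND4 held the largest in each library. MT-CO1 held 38.4% of the mRNA counts in sc, 36.5% in shDCBLD2, 39.4% in Vec and 41.2% in the OE-labelled library. MT-CO2 held 19.8%, 17.8%, 19.7% and 16.2%. Relative to the other messages, the OE-labelled library had more MT-ND3 and MT-ND6 than Vec (both 0.41 as log2 ratio of shares), more MT-ND1 (0.33) and MT-ND5 (0.30), and less MT-CO2 (-0.28). In shDCBLD2 against sc, the share of MT-ND2 was higher (0.50) and those of MT-ND4L (-0.94) and MT-ND3 (-0.44) were lower. Between the controls MT-ND4L (-0.89) and MT-ND5 (-0.62) were lower and MT-CO3 (0.35) was higher. The share of MT-ND4L thus set sc apart, at 0.444% against 0.232% to 0.273% in the other 3 libraries.

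The messages were grouped by the annotated stop codons printed above, which place MT-ATP6 among the whole codons. The 6 with an incomplete stop had median log2 ratios of -0.05, 0.16 and 0.26 in the 3 comparisons, in the order used above. The 7 with a whole codon had medians of -0.07, -0.04 and 0.39. The ranges of the 2 groups overlapped in each comparison.

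**Figure D4:**
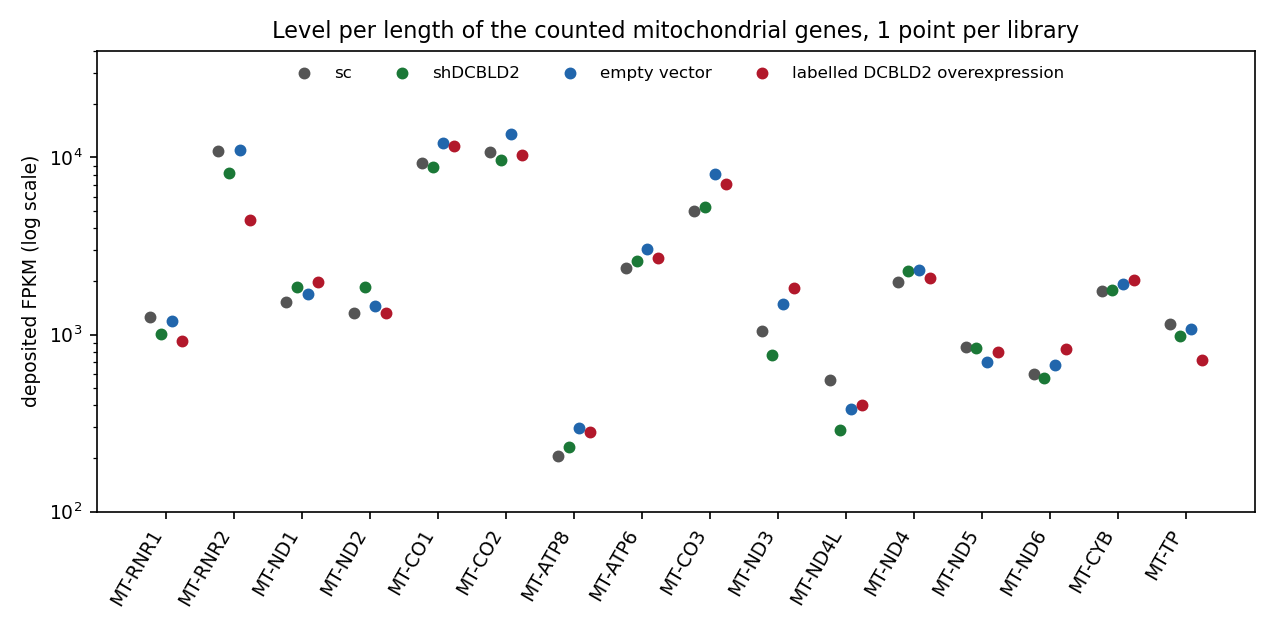
Deposited FPKM (vertical axis, log scale) of the 16 counted mitochondrial genes in order along the molecule, with 1 point per library and no error bar since each condition has 1 library. MT-RNR2, MT-CO1, MT-CO2 and MT-CO3 lie on top and MT-ATP8 lies lowest in all 4 libraries, and the red point of MT-RNR2, at 4429, lies below its other 3 points, which are at 8124 to 10952.

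Levels between genes were compared per length. In FPKM, MT-RNR2 was highest in sc (10843, with MT-CO2 close by at 10780), MT-CO2 was highest in shDCBLD2 (9663) and in Vec (13520), and MT-CO1 was highest in the OE-labelled library (11631). MT-RNR2 had rank 3 in shDCBLD2 and in Vec and rank 4 in the OE-labelled library (4429). The next ranks, MT-ATP6 and MT-ND4, were the same in all 4 libraries. Leaving out the bicistronic messages, those cut from one precursor thus differed in level per length, from 10780 for MT-CO2 to 851 for MT-ND5 in sc. MT-ATP8, at 206, shares its message with MT-ATP6, at 2369, so its value is not the level of a separate message.

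Copies of mitochondrial genes in the nucleus could take up mitochondrial reads. Of 390 such pseudogenes of the mRNA genes, found by name, 346 had no count, and 3 had more than 100 counts in a library, all on chromosome 1. MTND2P28, which is 98.4% identical to MT-ND2, had 1455, 1797, 1441 and 1210 counts in sc, shDCBLD2, Vec and OE-labelled. MTATP6P1 (98.5% identical to MT-ATP6) had 1334, 1446, 1988 and 1520 counts, and MTCO1P12 (98.7% identical to MT-CO1) had 279, 224, 279 and 326. How reads that fit both a gene and its copy were handled was not given in the sources used here. Values of at least MT-ND2, MT-ATP6 and MT-CO1 are therefore uncertain, by an amount that these counts do not bound. None of the 3 copies was changed in any comparison. Of the copies of MT-RNR2, the 13 nuclear genes named MTRNR2L had at most 4 counts in a library, and 8 of them had none.

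Nuclear genes that serve mitochondrial gene expression or mitochondrial DNA were described next. They were 9 listed under transcription, 14 under transcript processing, 7 under mRNA stability and decay, 12 under mitochondrial DNA upkeep and 6 nuclear regulators. Of 48 such factors, all past the filter, 2 were higher and 4 lower by 2-fold in the OE-labelled library against Vec, with a median of -0.25 beside -0.04 for all genes. This count of 6 in 48 is close to the 11.8% of all genes changed in that comparison, and so the changed factors are given as values and not as a property of the list. The 4 that were lower were FASTKD1 (-1.48), PTCD2 (-1.21), FASTKD2 (-1.14), which is needed for the 16S rRNA and the large ribosomal subunit, and LRPPRC (-1.07), which stabilizes mitochondrial mRNAs. FASTKD2 and LRPPRC were named after their values were seen. FASTKD2 had 567 counts in sc, 875 in shDCBLD2, 379 in Vec and 154 in the OE-labelled library, and LRPPRC had 3465, 4583, 2928 and 1249. Both were thus lowest where MT-RNR2 was lowest and highest in shDCBLD2, where MT-RNR2 was below sc. The 2 that were higher were the coactivators PPARGC1B (1.53) and PPARGC1A (1.33), the latter from 9 and 23 counts.

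Of the 9 factors listed under mitochondrial transcription, 8 were below 0 in that comparison, where 47.1% of all genes past the filter lay above 0. Their median was -0.58, with none past 2-fold. TFAM, which packages mitochondrial DNA, was at -0.54, TFB2M, which opens the promoter, at -0.98, and the RNA polymerase POLRMT at 0.24. TFB2M and POLRMT were named after their values were seen. For shDCBLD2 against sc, 1 of the 48 was changed, beside 6.78% of all genes, namely PPARGC1A (-2.24, from 102 and 22 counts), and the median was 0.22, with TFAM and PNPT1, a mitochondrial RNA exonuclease, highest at 0.51 each. Between the controls, where 4.11% of all genes were changed, 3 of the 48 were lower, PPARGC1A (-3.16), PRORP (-1.64), a subunit of the RNase that cuts the 5′ ends of tRNAs, and PPARGC1B (-1.07), and the median was -0.12. The ratio of PRORP came from 54 counts in sc and 15 in Vec. PRORP overlaps other genes in the deposited table, as do PTCD2, FASTKD2, LRPPRC, PPARGC1A and PPARGC1B, and their reads may be shared. For PRORP these include another entry under its own deposited symbol, KIAA0391, which was not used.

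Mitochondrial ribosomal proteins had 78 entries in the deposited table, 75 of them past the filter. MRPL30 and MRPS17 each had repeated entries that overlap, and no entry of MRPL30 passed. None of the 75 was changed in any of the 3 comparisons, in which 11.8%, 6.78% and 4.11% of all genes were. Their medians were -0.18 in the OE-labelled library against Vec, 0.19 in shDCBLD2 against sc and 0.19 in Vec against sc. The members ranged from -0.93 for MRPL13 to 0.74 for MRPL55 in the first of these.

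Nuclear subunits of the respiratory chain were set beside the mitochondrial ones. Of 76 genes, none was changed in any comparison, beside the same 11.8%, 6.78% and 4.11% of all genes, and their medians were -0.04, -0.04 and 0.24. Between the controls 70 of the 76 lay above 0, as did 11 of the 13 mitochondrial messages, where 49.2% of all genes past the filter did. For complex IV, 11 of 11 nuclear subunits lay above 0 between the controls, with a median of 0.27, beside 0.48 for the summed mitochondrial ones. In shDCBLD2 against sc, where 50.9% of all genes past the filter lay above 0, the same 11 all lay below 0. Their median was -0.21, while the summed mitochondrial ones stood at -0.04. For complex I, the median of 37 nuclear subunits in shDCBLD2 against sc was -0.04 and the summed mitochondrial ones stood at 0.22.

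**Figure D5:**
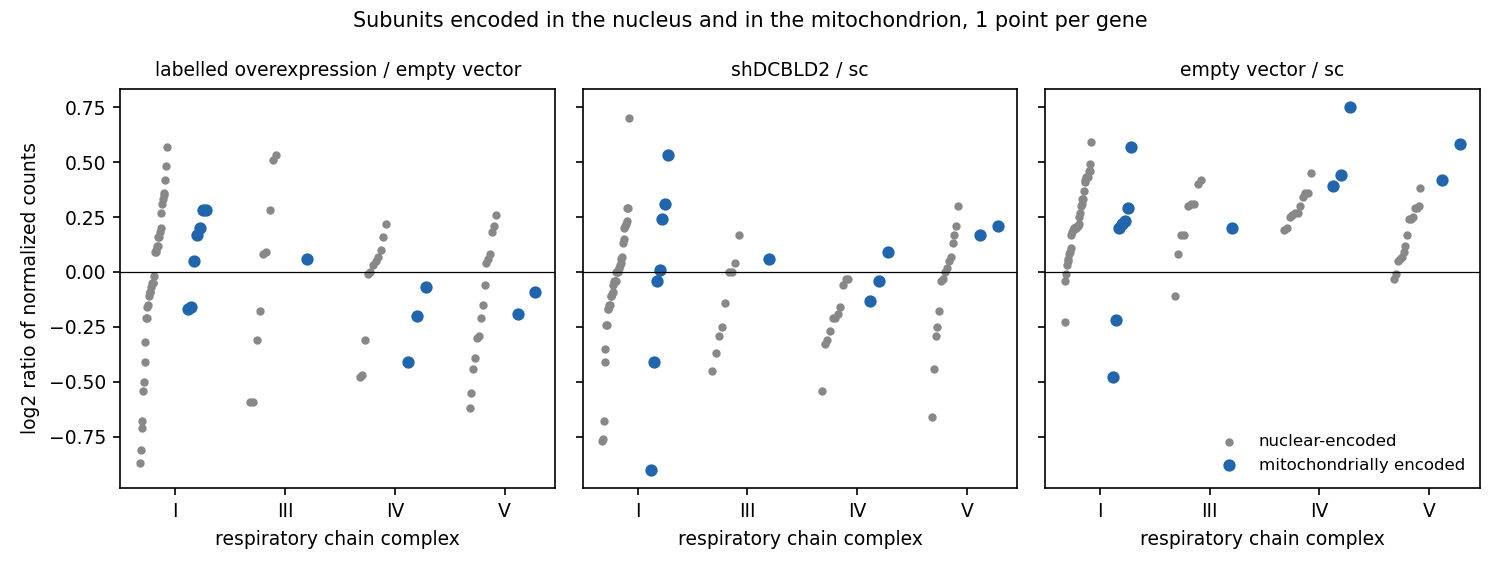
Log2 ratios of normalized counts (vertical axis) for nuclear-encoded (grey) and mitochondrially encoded (blue) subunits of respiratory chain complexes I, III, IV and V (horizontal axis), with 1 point per gene, in the 3 comparisons. In the right panel, Vec against sc, nearly all points of both kinds lie above 0, with MT-CO3 highest at 0.75.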

How the data were processed

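RNA of 4 A549 libraries, 1 per condition, was isolated with poly(A) beads and built with a TruSeq kit. The authors deposited raw read counts per gene for 57905 genes and FPKM, which are those counts per kilobase of exonic length and relative to the library total. The 4 per-sample files held the same values as the joint table. The aligner, counter, annotation and strand setting are not given in the sources used here. The submitters' processing notes name the mouse build mm9, although the gene identifiers are human. MT positions equal those of GENCODE 29 and RefSeq for 37 of 37 genes. This match covers MT alone and does not tell which human build was used for the nuclear genes.

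Counts were scaled with TMM factors of edgeR 4.0.16 (R 4.3.3). DESeq2 1.42.0 size factors, library totals and factors from nuclear genes alone were alternatives. Other steps used matplotlib 3.10.9, pandas 2.3.3, scipy 1.17.1 and numpy 2.4.6 under Python 3.11.15. Log2 ratios of counts used a prior count of 2, in proportion to library size. Intervals are exact Clopper-Pearson 95% intervals and cover counting error only; library totals of 16601633 to 21537283 make them narrow for abundant genes. Genes with a mean of at least 1 CPM entered, and changed means at least 2-fold with an interval that excludes no change. With single libraries there are no p-values. The scripts were tested on simulated data. Every mitochondrial mRNA and rRNA was named; in nuclear lists the 2 highest and 2 lowest ratios per comparison could be named, and other names are said to be chosen after their values were seen. The members and lists were chosen with earlier results of these data known. Lists were written from general knowledge (167 entries, 36 found under an older symbol, none absent).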

Additional observations from a re-analysis of the deposited data

How the results depend on the processing

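Each condition has 1 library, so the spread between cultures is unknown, leaving out a replicate was not possible. No paired analysis was possible because each condition has 1 library. The counts on MT-ND2, MT-CO1 and MT-ATP6 share sequence with nuclear copies, and poly(A) selection limits what the rRNA and tRNA counts mean. Of the alternative values for the main results, 38 stayed the same, 35 moved and 5 changed direction, and the cause was not tested. Ratios stayed the same if equal after rounding or within the counting interval, and shares if within it. Numbers of changed genes have no such interval, and those that stayed the same were equal.

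The summed log2 ratio of the OE-labelled library to Vec (-0.37) was -0.35 with DESeq2 size factors and -0.35 with library totals, -0.07 against sc, -0.39 without the overlapping genes, -0.13 without the rRNA genes and -0.14 without MT-RNR2, an alternative added after the data were seen. The median of the mRNAs (-0.07) was -0.05 with either scaling, but 0.26 against sc and 0.06 without the overlapping genes. In shDCBLD2 against sc the sum (-0.09) was -0.07 with DESeq2 size factors, -0.12 with library totals, -0.39 against Vec, -0.12 without the overlapping genes, 0.03 without the rRNA genes and 0.02 without MT-RNR2. The median of the mRNAs (0.06) was 0.08, 0.03, -0.27 against Vec and 0.01 without the overlapping genes. Between the controls the sum (0.30) was 0.24 with library totals, 0.40 without the rRNA genes and 0.39 without MT-RNR2, and the median (0.29) was 0.23 with library totals and 0.23 without the overlapping genes.

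MT-RNR2 stayed at -1.33 to -1.25 in the OE-labelled library under the scalings and the other control, and at -0.46 to -0.36 in shDCBLD2. At 1.5-fold, the changed genes numbered 2 in the OE-labelled library, 1 in shDCBLD2 and 1 between the controls. The mitochondrial share with only filtered nuclear genes as the rest was 5.55% in sc, 5.10% in shDCBLD2, 6.55% in Vec and 5.15% in the OE-labelled library. With the nuclear copies added it was 5.55%, 5.10%, 6.55% and 5.16%, and the mRNAs alone, as a share of all counts except those on mitochondrial rRNA and tRNA genes, took 3.79%, 3.77%, 4.79% and 4.39%.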
